A study of Mus musculus with 8 samples.

Results

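T-box transcription factors are DNA-binding proteins that share one DNA-binding domain, the T-box, and 10 genes of this family were followed here in sorted cells of the embryonic mouse kidney. They were Tbx18, Tbx1, Tbx2, Tbx3, Tbx4, Tbx5, Tbx6, Tbx15, Tbx20 and Mga. They were taken by name: a probe belonged to the set if the scanner files gave it one of these gene names and if it was present on both array designs of the series. This gave 13 probes of 39429, for 10 genes of 30139, with 2 probes for Tbx6, 3 for Tbx20 and 1 for each of the others.

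As background, T-box proteins bind short DNA elements built around the core letters of the T half-site, and family members can compete for the same elements. Tbx18, Tbx2, Tbx3 and Tbx15 act mainly as repressors, with corepressors of the Groucho (TLE) family and histone deacetylases, whereas Tbx5 and Tbx6 are known mainly as activators. In the mouse kidney, Tbx18 marks the mesenchyme around the early ureter, the tissue that later forms ureteral smooth muscle, and Tbx2 and Tbx3 are expressed in the same mesenchyme.

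RNA came from GFP-positive cells of kidney rudiments at stage E11.5, from NMRI embryos of both sexes, pooled to about 100000 cells per sample. The 3 controls were Tbx18(GFP/+), so they carried 1 GFP allele and 1 wild-type allele of Tbx18. The 3 Tbx18 null samples were Tbx18(GFP/GFP). The 2 Tbx18VP16 samples were Tbx18(cre/+);Hprt(CAG:Tbx18VP16-GFP), in which cells with Cre from the Tbx18 locus make GFP and a form of Tbx18 fused to VP16, a viral domain that activates transcription. Every group thus carried at least 1 altered Tbx18 allele, and no sample was wild type. GFP came from the Tbx18 locus in control and null embryos and from Hprt in Tbx18VP16 embryos, so the sort read the activity of the Tbx18 locus directly in the former and through Cre in the latter. The Tbx18VP16 arrays also had a design, a slide and a scan of their own. Genotype, source of GFP and array batch cannot be told apart in any comparison with them.

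Levels are log2 signals relative to the 75th percentile of each array, so 0 is the level of that percentile, and changes are differences of such levels. Each gene was tested with limma, and a call is a Benjamini-Hochberg adjusted p under 0.05 over all genes tested. Between 60.1% and 66.0% of probes were well above background per array, and no spot was saturated. All 12 genes listed as markers of ureteric mesenchyme, Tbx18 among them, were well above background, and the log2 of their summed signal was between 6.93 and 7.81 on the 8 arrays. Of 5 listed smooth muscle genes, Acta2, Tagln and Cnn1 were well above background on every array, and Myocd on 2 null arrays only. The late smooth muscle gene Myh11 was not well above background on enough arrays to be tested. Control 3 and null 3 came from 10 ng of RNA and from a slide of their own, and null 3 stood apart from the rest by blood genes: its summed level of 7 erythroid genes was 9.08, against 1.49 to 4.91 on the other arrays. These are bulk samples, in which fewer cells of a type and less RNA per cell cannot be told apart.

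Across the family, Tbx18 was the gene that differed most clearly. It read lower on every null array than on every other array, and Tbx18VP16 cells did not pass the test against control. No other member passed the test in any of the 3 comparisons as designed. In null against control cells, 6 members could be tested and 0 were called (limma; 1 had an unadjusted p under 0.05), as were 0 of 19708 genes, a background of 0% (951 at an unadjusted p under 0.05). With the replicate number as a block, which pairs control and null pools of one number, 1 member was called lower, Tbx18, against a background of 0.934% in either direction and 0.452% lower. In Tbx18VP16 against control cells, 0 of 8 tested members were called (limma), against a background of 5.34%. At an unadjusted p under 0.05 there were 3 of 8, beside 4693 of 20597 genes. In Tbx18VP16 against null cells, 1 of 8 was called, Tbx18 again, against a background of 3.67% in either direction and 1.17% higher (2.5% lower). Groups that did not overlap were found for 2 members in null against control (background 7.75%), for 4 in Tbx18VP16 against control (47.6%) and for 4 in Tbx18VP16 against null (48.1%). The shares for the Tbx18VP16 comparisons lie near the background, so they say nothing particular about the family. Both comparisons with control use the same 3 control arrays.

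Scaling matters for the Tbx18VP16 arrays. Relative to control, 420 genes were higher and 680 lower there, and relative to null 241 and 515. When the percentile was taken over all spots of each design instead, these arrays shifted up by 0.458 and 0.441, and the splits turned to 1091 higher and 248 lower, and to 677 and 165. Quantile normalisation gave 558 and 622, and 354 and 415. The authors' deposited values gave 566 and 569, and 391 and 395. The median change over all genes was -0.14 against control and -0.15 against null, and members are to be read relative to it.

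**Figure D1:**
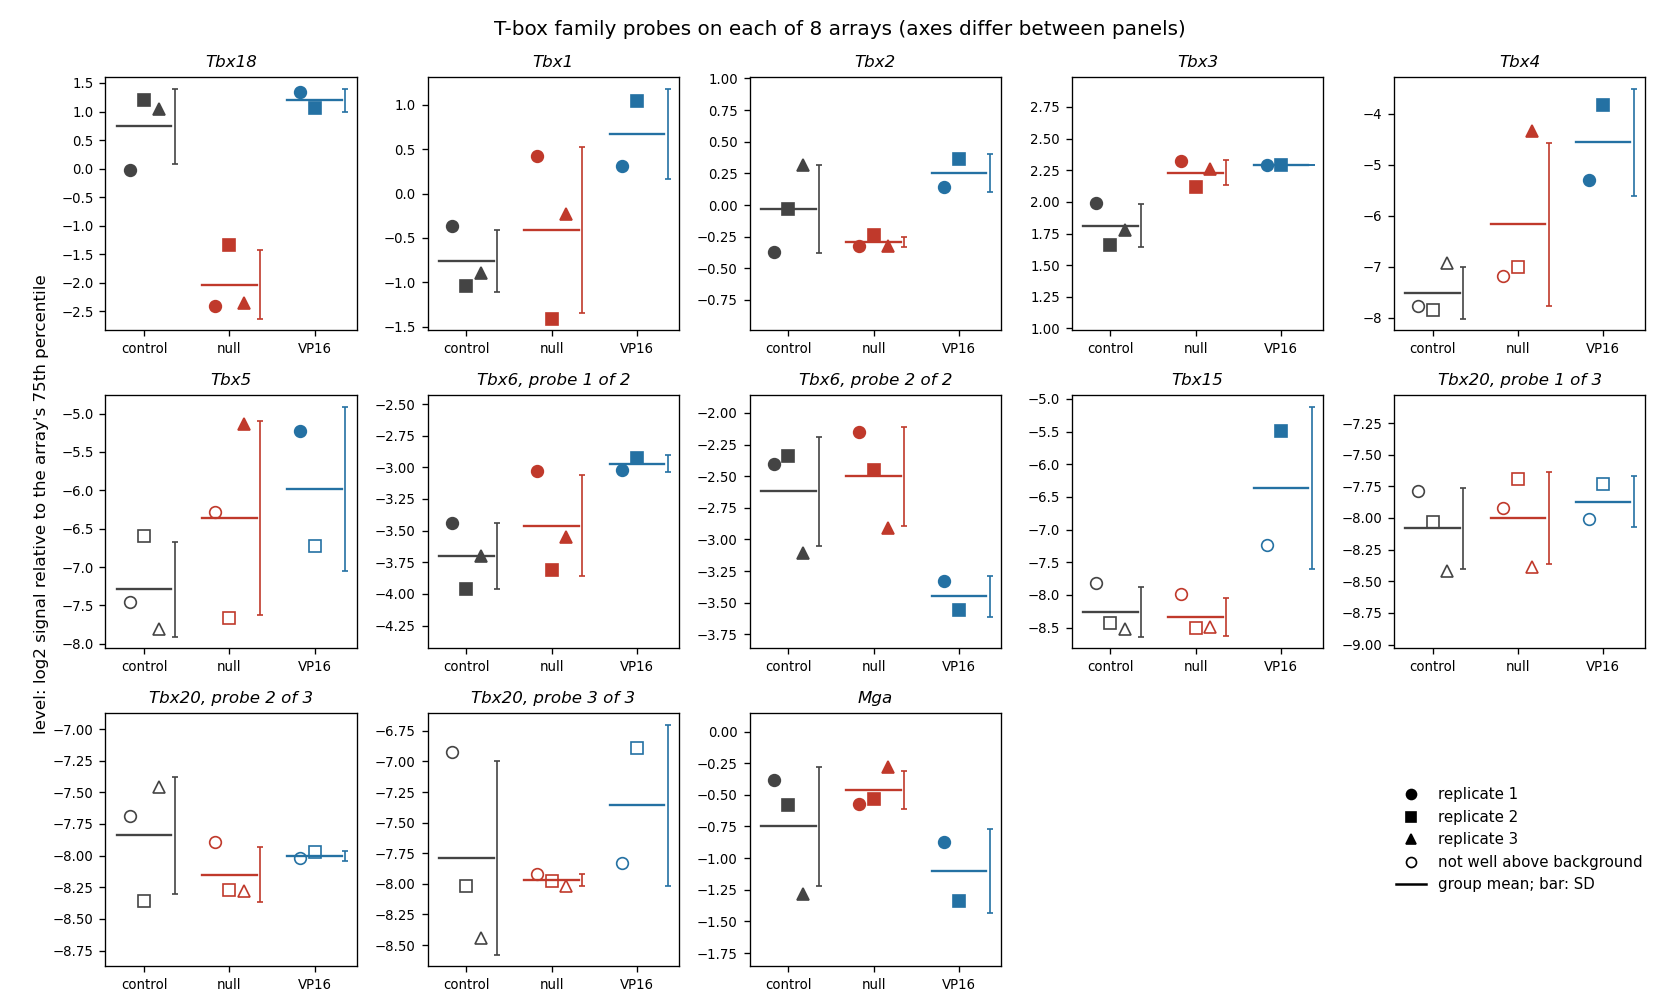
Level of each of the 13 member probes on the 8 arrays (y axis: log2 signal relative to the array's 75th percentile, with a separate range in each panel), by group (x axis), where shapes give the replicate number, open symbols mark arrays on which the probe was not well above background, lines are group means and bars SD. The 3 null arrays of Tbx18 lie between -2.4 and -1.34, below all others, while Tbx4 is well above background on null array 3 and both Tbx18VP16 arrays only.

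Each probe is 60 bases long, and what an array reports about a gene depends on where that probe sits. The last 30 bases, or the 30 around a polyadenylation signal, are shown for 5 probes on which the results below turn: the targeted gene, its close relation in this tissue Tbx2, Tbx4, whose signal lay near background, and the 2 probes of Tbx6 that disagree. Sequences are those of the deposited arrays, in the sense of the transcript, 5′ to 3′, and capitals mark AATAAA, the letters of the canonical polyadenylation signal. Positions are those of whole probes in the mm9 build.
Tbx18, chr9:87599514-87599573, minus strand: tctgaggtatctatagcAATAAAggcttag
Tbx2, chr11:85655391-85655450, plus strand: aagcgagaaaatAATAAAaacgctatcatg
Tbx4, chr11:85729510-85729569, plus strand: gatatatagcatggacattttgttttgcat
Tbx6, proximal, chr7:133928828-133928887, plus strand: agctcaggcaaggcagctctgagtccagct
Tbx6, distal, chr7:133929000-133929059, plus strand: agtatttttgttAATAAAactccaaagaca
The letters AATAAA, searched on the sense strand, occurred in 3 of the 13 member probes (23.1%) and in 4965 of all 39429 probes (12.6%). The match describes the probe and is not evidence of a site in use. All 13 probes had the same sequence on both designs.

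Tbx18 is the targeted gene, and its probe starts at base 2740 of the transcript it was designed on. The level was -0.02, 1.20 and 1.04 in controls 1 to 3, -2.40, -1.34 and -2.35 in null samples 1 to 3, and 1.34 and 1.06 in Tbx18VP16 samples 1 and 2. Every null array lay below every other array, and the ranges of control and Tbx18VP16 arrays overlapped in part. The probe was well above background on all 3 null arrays, so signal remained there. The labels state neither which part of the gene the GFP allele removes nor which part the transgene carries, so the probe checks the labels only within that limit.

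The null change of Tbx18 was -2.77 ± 0.44 (SE, n = 3 and 3; 95% interval -3.79 to -1.75), a 6.82-fold lower signal. Its adjusted p was 0.118 in limma without the pairing and 0.0323 with it. Within the same-numbered pairs the change was -2.38, -2.54 and -3.39, lower in 3 of 3 pairs. The same direction in all pairs was seen in 36.5% of genes. Without pair 1 or pair 2 the blocked fit gave an adjusted p of 0.0908 and 0.0848, and without pair 3, the pair on the second slide, it gave a change of -2.46 with an adjusted p of 0.00034. Relative to control, nephron progenitor markers had summed levels of 5.64 to 6.01 in null samples against 4.87 to 5.47, and renal stroma markers 6.84 to 7.29 against 7.61 to 7.76. All 8 and all 7 genes of these lists were measured. Ureteric epithelium markers had summed levels of 1.77, 2.59 and 3.75 in null samples 1 to 3 against 1.37, 2.03 and 1.89 in controls. Of these 10 genes, 9 were higher, beside 10115 of 19708 of all genes tested. Endothelial markers stood at 1.23, 1.41 and 3.31 against 0.93, 1.29 and 0.59, with 7 of 7 tested genes higher and Tek not well above background. The part of such shifts in the Tbx18 value was not tested.

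In Tbx18VP16 cells, the Tbx18 signal did not pass the test against control, with a change of 0.46 ± 0.45 (SE, n = 2 and 3; 95% interval -0.58 to 1.51; limma adjusted p = 0.582), and of 0.08 without control 1. Against null it was 3.23 ± 0.45 higher (95% interval 2.19 to 4.28; limma adjusted p = 0.0141), a 9.40-fold difference, and both Tbx18VP16 arrays lay above all 3 null arrays. That call was lost with either Tbx18VP16 array left out, at 3.09 (adjusted p = 0.198) without replicate 1 and 3.37 (adjusted p = 0.217) without replicate 2. Ordered by mean, Tbx18VP16 stood at 1.20 ± 0.20 (SD, n = 2), control at 0.74 ± 0.66 (SD, n = 3) and null at -2.03 ± 0.60 (SD, n = 3).

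Tbx2 and Tbx3 encode closely related repressors that are known to keep ureteric mesenchyme proliferating in the mouse, in part by repressing cell cycle inhibitor genes. Tbx2 stood at -0.37, -0.03 and 0.32 in controls, at -0.32, -0.24 and -0.32 in null samples, and at 0.14 and 0.36 in Tbx18VP16 samples. The null arrays lay inside the control range, and both Tbx18VP16 arrays lay above the null arrays. The change was -0.26 ± 0.25 in null cells (SE; 95% interval -0.86 to 0.33; adjusted p = 1) and 0.28 ± 0.26 in Tbx18VP16 cells (95% interval -0.32 to 0.87; adjusted p = 0.56). Tbx18VP16 minus null was 0.54 ± 0.26 (adjusted p = 0.261). That interval ran from -0.05 to 1.13, and none of the 3 shows equal levels.

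Tbx3 stood at 1.99, 1.66 and 1.78 in controls, at 2.32, 2.12 and 2.26 in null samples and at 2.29 on both Tbx18VP16 arrays. All null and all Tbx18VP16 arrays lay above all controls. The null change of 0.42 ± 0.22 (SE, n = 3 and 3; 95% interval -0.10 to 0.95) had adjusted p-values of 1 without and 0.227 with the pairing, although it was 0.33, 0.46 and 0.48 within pairs. In Tbx18VP16 cells it was 0.48 ± 0.22 (95% interval -0.02 to 0.98; adjusted p = 0.235). With the percentile over all spots it was 0.93 (adjusted p = 0.0427), and no other of the 19 alternatives called it. Tbx18VP16 and null samples differed by 0.06 ± 0.22 (95% interval -0.44 to 0.56; adjusted p = 0.903).

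Tbx1, a factor of the pharyngeal arches and the otic vesicle that belongs to the same subfamily as Tbx18, varied within groups. It stood at -0.37, -1.04 and -0.89 in controls, at 0.42, -1.41 and -0.23 in null samples and at 0.31 and 1.04 in Tbx18VP16 samples. The null samples spanned the whole control range and more, while both Tbx18VP16 arrays lay above all controls. The null change was 0.36 ± 0.47 (SE; 95% interval -0.75 to 1.47; adjusted p = 1) and turned to -0.05 without null sample 1. In Tbx18VP16 cells the change was 1.44 ± 0.52 (SE, n = 2 and 3; 95% interval 0.25 to 2.63), a 2.71-fold higher signal whose adjusted p of 0.152 missed the threshold. Against null it was 1.08 ± 0.52 (adjusted p = 0.262). Gp1bb, which encodes a platelet surface receptor subunit and is the gene next to Tbx1 in RefSeq order, was named after its values were seen, and it rose by 1.33 ± 0.27 in Tbx18VP16 against control cells (limma adjusted p = 0.0335). Against null its change was 1.22 (adjusted p = 0.0513), and that of Gnb1l, the neighbour on the other side, was -0.49 ± 0.44 against control (adjusted p = 0.543).

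Tbx4 and Tbx5 are the paired factors of hindlimb and forelimb, and both also act in the lung mesenchyme. Tbx4 was not well above background on any control array, where it read -7.77, -7.85 and -6.92. In null samples it read -7.18, -7.01 and -4.33, above background on array 3 only, and in Tbx18VP16 samples -5.30 and -3.82, above background on both. The Tbx18VP16 arrays thus lay above all controls, but null array 3 lay between them. The mean level was -4.56 in Tbx18VP16 against -7.51 in control cells (change 2.95 ± 0.86, SE, 95% interval 0.98 to 4.92, limma adjusted p = 0.0917). With control readings raised to one floor common to all arrays, the fold between the means was 2.69. Raised to each array's own lowest signal well above background, it was 3.65. Neither fold takes the spread between arrays into account, and the change was not called. Single spots of this probe differed by up to 1.49 (SD of log2 signal within an array), as happens near background.

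The outcome for Tbx4 against control changed without null sample 3, which enters through the pooled spread, the filter and the adjustment. Without it the adjusted p was 0.021, and without control 3 and null 3 together the change was 3.24 with an adjusted p of 0.029. Tbx4 was also called with the replicate number as a block, which keeps null 3, though the Tbx18VP16 numbers did not pair. The change was 0.64 (adjusted p = 0.265) with normexp background correction, and 1.43 (adjusted p = 0.22) with dim signals raised to a common floor. Against null the change was 1.61 ± 0.86 (SE; 95% interval -0.36 to 3.58; adjusted p = 0.306), and with normexp 0.14. Levels of platelet and limb bud markers were set beside Tbx4. The summed level of the 4 platelet genes was -5.32, -3.95 and -4.52 in controls 1 to 3, -4.76, -1.22 and 0.60 in null samples 1 to 3, and 2.08 and 3.06 in Tbx18VP16 samples. In Tbx18VP16 against control, 4 of 4 were called higher, beside 420 of 20597 genes (2.04%). For Ppbp and Gp9, no control array was well above background. Of 6 limb bud markers, 2 were called higher in that comparison, Hand2 (2.48) and Msx2 (1.76), beside the same background. The summed level of the 6 was 2.21 to 2.75 in controls, 1.81 to 2.10 in null samples and 2.79 and 3.04 in Tbx18VP16 samples. In null against control cells, 3 of the 6 were higher and 3 lower, with a median change of 0.18. The part of either cell type in the Tbx4 signal was not tested.

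Tbx5 was likewise near background. It read -7.46, -6.60 and -7.81 in controls, none of them well above background. It read -6.28, -7.66 and -5.14 in null samples and -5.23 and -6.73 in Tbx18VP16 samples, above background on null array 3 and Tbx18VP16 array 1 only. The groups overlapped. The Tbx18VP16 change was 1.31 ± 0.75 (SE; 95% interval -0.42 to 3.03; adjusted p = 0.342) against control and 0.38 ± 0.75 (95% interval -1.35 to 2.10; adjusted p = 0.803) against null. Both turned in sign with normexp background correction, to -0.11 and -0.39. Neither Tbx4 nor Tbx5 could be tested in null against control cells, because each was well above background on 1 of those 6 arrays where 3 were required.

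In the mouse, Tbx2 lies next to Tbx4 on chromosome 11 and Tbx3 next to Tbx5 on chromosome 5. Each pair joined a gene well above background on all arrays to one near background, and no change within a pair was called in any comparison as designed. The outer neighbours Bcas3 and Brip1 changed by -1.06 ± 0.53 and -0.28 ± 0.27 in Tbx18VP16 against control cells (adjusted p = 0.281 and 0.565). Med13l and Rbm19, beside Tbx3 and Tbx5, changed by -0.08 ± 0.58 and -0.20 ± 0.45 (adjusted p = 0.951 and 0.82). None of the 4 was called in any comparison.

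Tbx6, which directs presomitic mesoderm toward somites, was measured by 2 probes that start at bases 1480 and 1652 of one transcript, and they moved in opposite directions in Tbx18VP16 cells. The proximal probe read -2.40, -2.34 and -3.11 in controls, -2.15, -2.45 and -2.91 in null samples, and -3.33 and -3.56 in Tbx18VP16 samples. The distal probe, the one with AATAAA, read -3.44, -3.96 and -3.70 in controls, -3.03, -3.81 and -3.55 in null samples, and -3.02 and -2.93 in Tbx18VP16 samples. Both Tbx18VP16 arrays lay below all other arrays for the proximal probe and above all others for the distal probe. In a limma fit on all probes, the change against control was -0.83 ± 0.33 (SE; adjusted p = 0.211) for the proximal and 0.73 ± 0.30 (adjusted p = 0.212) for the distal probe.

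Neither probe passed the test, and the direction of Tbx6 in Tbx18VP16 cells was therefore not settled. With the proximal probe standing for the gene, the change was -0.83 ± 0.33 against control (95% interval -1.59 to -0.06; adjusted p = 0.191) and -0.94 ± 0.33 against null (95% interval -1.71 to -0.18; adjusted p = 0.152). The mean of both probes gave -0.05 against control. The probes also differ in base composition, with 55.0% G and C in the proximal and 35.0% in the distal one. In null against control cells the changes were 0.12 ± 0.32 and 0.24 ± 0.29 (adjusted p = 1 each).

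Tbx15, the closest relative of Tbx18 and a factor of skin and skeletal mesenchyme, was well above background on 1 of 8 arrays. It read -7.82, -8.43 and -8.52 in controls, -7.99, -8.50 and -8.49 in null samples, and -7.24 and -5.49 in Tbx18VP16 samples, where only the second was above background. It was not tested. Tbx20, a heart factor, was not well above background with any of its 3 probes on any array, with readings between -8.44 and -6.89. The 3 probes lie on the minus strand of chromosome 9. Such readings do not show that the gene was silent.

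Mga encodes a large protein with both a T-box and a domain that pairs with Max, and it is the DNA-binding scaffold of the Polycomb complex PRC1.6. Its level was -0.38, -0.58 and -1.28 in controls, -0.57, -0.53 and -0.28 in null samples, and -0.87 and -1.34 in Tbx18VP16 samples. Both Tbx18VP16 arrays lay below all null arrays, and they overlapped the control range. The change was 0.29 ± 0.30 in null cells (SE; 95% interval -0.41 to 0.99; adjusted p = 1), and -0.07 without pair 3. It was -0.35 ± 0.32 in Tbx18VP16 against control cells (95% interval -1.09 to 0.38; adjusted p = 0.546), and 0.10 with the percentile over all spots. Against null it was -0.64 ± 0.32 (95% interval -1.37 to 0.09; adjusted p = 0.275).

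The other subunits of PRC1.6 were tested as a list. All 13 listed genes, among them the Mga partner Max, the E2f6 and Tfdp1 pair, the Polycomb ring finger protein Pcgf6 and the histone deacetylases Hdac1 and Hdac2, were tested, and 0 were called in each comparison (limma; 0, 0 and 1 had an unadjusted p under 0.05 in null against control, Tbx18VP16 against control and Tbx18VP16 against null). Their median change was 0.04 in null cells and 0.22 in Tbx18VP16 against control cells, beside 0.01 and -0.14 for all genes. In the latter comparison 11 of 13 were higher, beside 8408 of 20597 genes, and such counts move with the scaling of the Tbx18VP16 arrays. Single changes ran from -0.21 to 1.16, the highest being that of Hdac2 (1.16 ± 0.84, adjusted p = 0.452). PRC1.6 is known to silence germline genes in the mouse, and of 12 such genes 8 could be tested in the null and 10 in the Tbx18VP16 comparisons. None was called (limma; 0, 1 and 0 had an unadjusted p under 0.05). The largest change in Tbx18VP16 against control was that of Tdrkh, at 1.06, which was above background on 1 array of each group, and Dazl and Stk31 were not well above background.

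**Figure D2:**
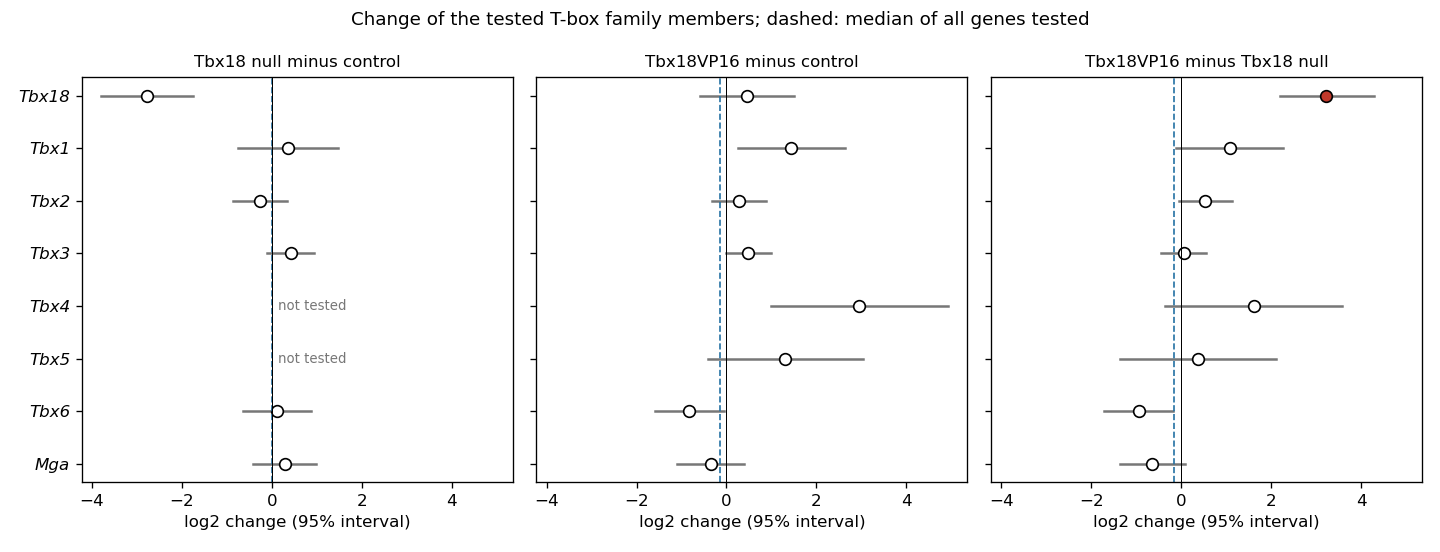
Log2 change (x axis) of each tested member (y axis) in the 3 comparisons, with 95% intervals from limma; filled red points passed the adjusted threshold of 0.05 and the dashed line is the median change of all genes tested. Only Tbx18 in Tbx18VP16 minus null, at 3.23, is filled. The interval of Tbx4 against control runs from 0.98 to 4.92, but no control array was well above background for it. Tbx4 entered the test through null array 3 and both Tbx18VP16 arrays, and its change was 0.64 with normexp background correction.

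Of 7 further T-box genes outside the set, T, Eomes, Tbx19 and Tbx21 were not well above background on enough arrays to be tested. Tbr1, Tbx10 and Tbx22 were tested and 0 of 3 were called in any comparison. In null against control, Tbx18VP16 against control and Tbx18VP16 against null, 0, 3 and 2 had an unadjusted p under 0.05 (limma). Over all genes these counts were 951 of 19708, 4693 of 20597 and 4528 of 20597. Tbx22, a factor of the palate, changed by 1.43 ± 0.45 in Tbx18VP16 against control (adjusted p = 0.113), but its second probe was not well above background. Tbx10 changed by -1.38 ± 0.36 against null (adjusted p = 0.0738). Tbr1, a factor of cortical neurons, was well above background on no Tbx18VP16 array, so its level there has only a bound (adjusted p = 0.191 against control).

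Cofactors of T-box proteins were compared in null cells. Of 22 listed genes, among them corepressors of the TLE family and histone deacetylases, all were tested and 0 were called (limma). At an unadjusted p under 0.05 there were 3, beside 951 of 19708 genes. The median of the list was 0.03, beside 0.01 for all genes.

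Genes described as targets of T-box factors come mostly from work on heart, limb and somite. In null cells, 0 of 23 were called without the pairing (limma). At an unadjusted p under 0.05 there were 7, beside 951 of 19708 genes. With the pairing, Cdkn1a, the cell cycle inhibitor p21 that Tbx2 and Tbx3 are known to repress, rose by 2.16 (adjusted p = 0.0428), and Dkk2, a secreted Wnt antagonist, fell by 2.14 (adjusted p = 0.0226). Without pair 1 or pair 2 neither call was kept (adjusted p between 0.0827 and 0.115). Relative to control, 6 of 25 were called in Tbx18VP16 cells, 3 of them higher and 3 lower, beside backgrounds of 2.04% and 3.3%. The list was chosen with earlier results of these data known. An excess over all genes is therefore no evidence about T-box targets. The median of the list was -0.35.

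Among the 3 lower genes, Dkk1, another Wnt antagonist, fell by 3.79 ± 0.24 on the log2 scale (adjusted p = 0.000532), from 1.48 in control to -2.31. Dkk2 fell by 3.59 ± 0.41 (adjusted p = 0.00451), and Sfrp1, a secreted Frizzled-related protein, by 0.92 ± 0.21 (adjusted p = 0.0427). The Dkk1 call held in all 19 alternatives run, that of Dkk2 in 17 and that of Sfrp1 in 8. With the percentile over all spots, Sfrp1 changed by -0.47 (adjusted p = 0.172).

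Among the 3 higher genes, Hand2, a basic helix-loop-helix factor of heart and limb, rose by 2.48 ± 0.34 (adjusted p = 0.00931). Cdkn1a rose by 3.42 ± 0.70 (adjusted p = 0.0339). The Notch ligand gene Dll1, a target of Tbx6 in presomitic mesoderm, was above background on no control array (adjusted p = 0.0495). The fold between its means was 5.14 from the common floor and 6.29 from each array's own, without regard to spread. The call held in 17 of 19 alternatives for Hand2, in 12 for Cdkn1a and in 7 for Dll1. For Dll1 the change was 2.36 (adjusted p = 0.0965) with dim signals raised to the common floor and 0.87 (adjusted p = 0.126) with normexp background correction. Relative to null, Dkk1 was 2.97 ± 0.24 lower (adjusted p = 0.00228) and Hand2 1.62 ± 0.34 higher (adjusted p = 0.0461), 2 of 25 genes beside a background of 3.67%. Each call here, except that of Dkk1 against control, was lost without either Tbx18VP16 array.

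**Figure D3:**
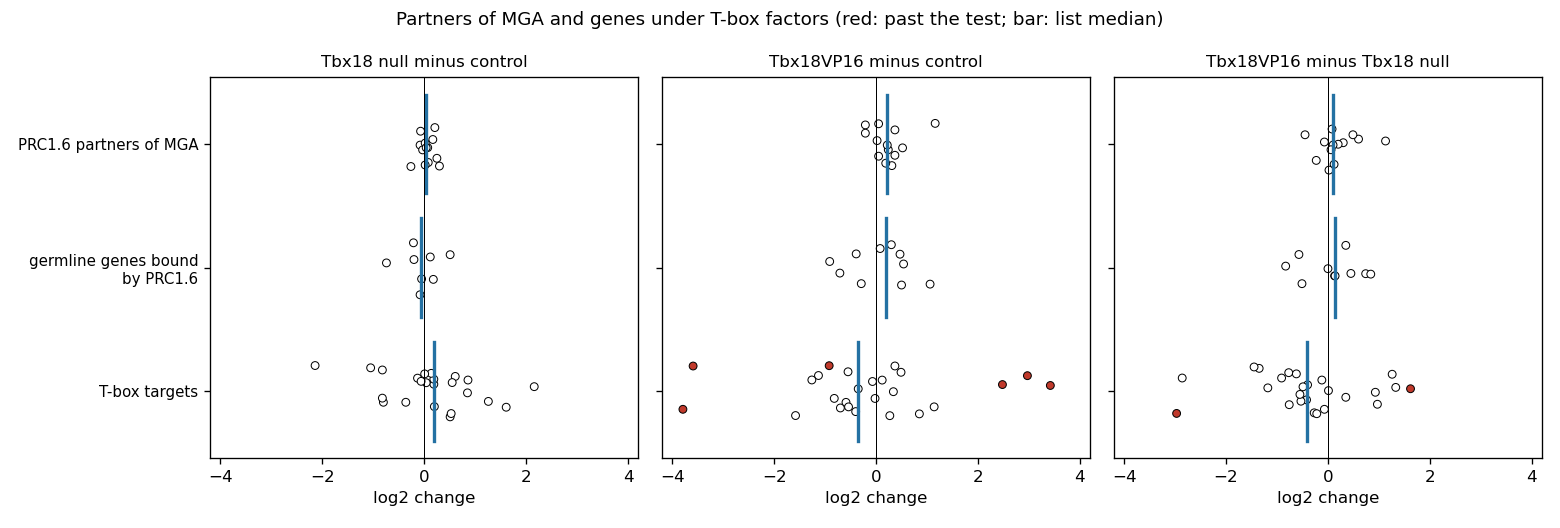
Log2 change (x axis) of every tested gene of 3 lists (rows) in the 3 comparisons, where red points passed the adjusted threshold of 0.05 without the pairing and blue bars are list medians. The 13 PRC1.6 genes stay within -0.45 and 1.16, while the T-box targets run from -3.79 to 3.42 in Tbx18VP16 minus control.

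Among tested protein-coding genes without clone-like or predicted names, those whose levels followed Tbx18 most closely over the 8 arrays were found by Pearson's r, as a description. The points share their 3 groups, so r mostly measures the low null arrays. They were Kit, a receptor tyrosine kinase (r = 0.995), Cpne8 (0.974), Bmp5, a bone morphogenetic protein (0.969), Abca5, a lipid transporter (0.967), and Ebf1, a transcription factor (0.964). Kit had a mean level of 2.04 in control, 1.06 in null and 2.10 in Tbx18VP16 cells, and Ebf1 of -0.45, -1.73 and 0.04. The null change was between -1.58 for Bmp5 and -0.60 for Abca5, smaller than that of Tbx18 in each case. Of the other members, Tbx2 had r = 0.77 with Tbx18 and Mga r = -0.66 over the same 8 arrays, and Tbx6, Tbx3, Tbx5, Tbx1 and Tbx4 lay between -0.52 and 0.04.

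**Figure D4:**
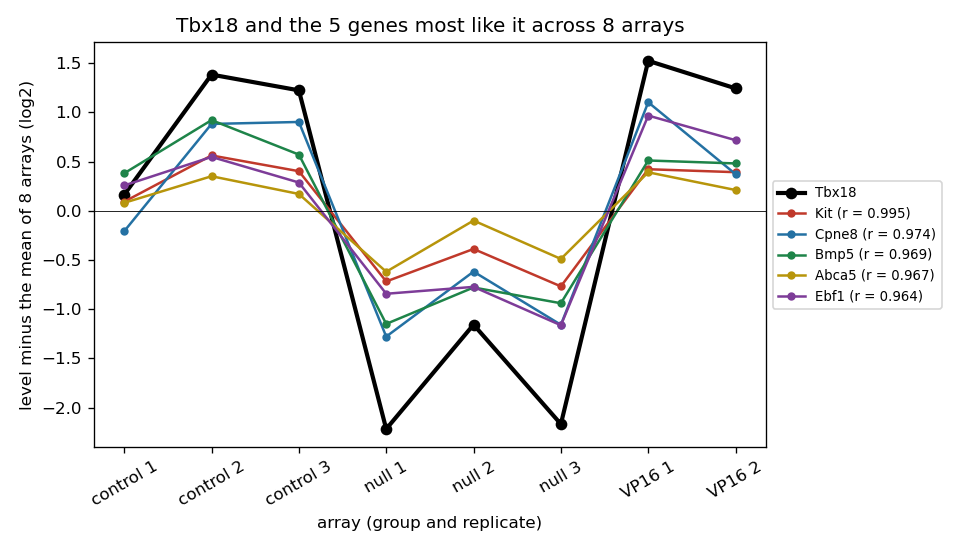
Levels of Tbx18 and of the 5 named protein-coding genes most like it (y axis: level minus the gene's mean over 8 arrays, log2) on each array (x axis), where lines only join the points of a gene. All 6 genes lie below their own mean on the 3 null arrays and, but for Cpne8 in control 1, above it on the other 5.

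T-box half-sites were looked for in RefSeq promoters of assembly GRCm38.p6, from 250 bases before to 50 after the start of each gene, on both strands. The letters AGGTGTGA were present in 399 of 27025 promoters (1.48%), and the shorter GGTGTGA, which every match of the former contains, in 4.6%. Among genes higher in Tbx18VP16 against control, 4 of 286 with a promoter sequence held AGGTGTGA (1.4%), as did 4 of 393 lower genes (1.02%) and 152 of 12931 tested genes (1.18%). Of the members, 6 had a promoter in the table, Mga, Tbx1, Tbx18, Tbx20, Tbx4 and Tbx6, and 0 held either motif. This says only that these letters are not in this window.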

How the data were processed

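Members and gene lists were chosen with earlier results of these data known. Spot intensity values were deposited as scanner output of Agilent Feature Extraction 10.7.3.1, per the submitters' processing notes, and per the file headers the processed signal had its background removed. The authors also deposited a table of linear intensity, in which 8 columns have identical sorted values, a floor of 10 and a median of 93.77. How it was made is not given. It served as an alternative.

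Outlier spots (1.86% to 2.55%) and control spots were left out and the 4 spots of a probe averaged. Levels are log2 of that signal minus the log2 of each array's 75th percentile (975.9 to 2129) over 39429 probes. Of these probes, 27597 were named through RefSeq accessions, 3488 by symbol, 393 by synonym and 5112 by the file, and 2839 had no name. Tests took probes with a signal well above background on 3 or more of 6 control and null arrays, or 2 or more of all 8, and the probe of highest mean level stood for its gene.

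limma 3.58.1 in R 4.3.3 (lmFit and eBayes, two-sided, Benjamini-Hochberg) compared null with control on 6 arrays, and Tbx18VP16 with either group in a fit of 3 group means on 8 arrays, which pools the spread. Replicates were separate pools, and p-values measure the spread between them. Deviations from group means correlated between control and null samples of one number at 0.827, 0.707 and 0.429, and at -0.753 to 0.321 for different numbers, so the numbers were taken as pairs. The blocked fit leaves 2 residual degrees of freedom. A fold against a group below background is a lower bound on the ratio of the measured means, not on the true change. For it, each dim array takes the lowest signal well above background on that array where the probe reads less, and these values are averaged. A floor common to all arrays was added after seeing the data.

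Named were all members and their probes, 7 other T-box genes, called genes and at most 4 of smallest p from each list, and neighbours of Tbx2, Tbx3, Tbx4 and Tbx5. So were the 5 genes most like Tbx18 among protein-coding genes without clone-like or predicted names. Gp1bb, Gnb1l, genes given as not well above background and the PRC1.6 subunits given as examples are outside this rule and were named after values were seen. A gene that this rule takes is not reported here. Alternatives covered scaling, background, filter, probe choice, arrays left out and blocks. In simulated data, 50 genes were changed at each fold, and 4, 37, 43 and 48 were called at 2, 4, 8 and 16-fold for null against control among 19708 genes, with 7 unchanged genes called. The numbers were 36, 48, 49 and 50 with the block (10 unchanged), 2, 36, 45 and 47 for Tbx18VP16 against control among 20597 genes (9 unchanged), and 4, 30, 46 and 50 against null (6 unchanged). Simulated noise was normal and independent between genes and arrays, unlike shifts in cell types or array batch. These counts therefore do not give the share of real changes that the tests find.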

Additional observations from a re-analysis of the deposited data

How the results depend on the processing

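Alternatives without pair 3, with floored signals, with the block for Tbx18VP16, or with the block and a pair left out were chosen after seeing the data. In null against control, the number of genes called was 1 without a filter, with outlier spots kept or with floored signals, 14 with the stricter filter, 6 with the slide as a block, 62 in a fit of all 8 arrays and 0 to 3 with an array left out. With the replicate number as a block it was 184, and 15, 11 and 901 without pairs 1, 2 and 3. Members called were 1 with the block, 1 with the block and without pair 3, and 1 with all 8 arrays. Tbx18 changed by -2.77 with the block and in the fit of 8 arrays (adjusted p = 0.0323 and 0.0478), by -2.46 with the block and without pair 3, and by -3.15 to -2.54 with an array left out. The block changed no other call of a member.

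In Tbx18VP16 against control, 626 genes were called with normexp background, and 39 to 1924 with an array left out (1924 without null 1, 300 without control 2, 688 without null 2, 45 and 39 without Tbx18VP16 1 and 2). Members called were 1 with the percentile over all spots (Tbx3), 1 without pair 3 (Tbx4), and 0 to 1 with an array left out. Against null, 404 genes were called with normexp, and 0 to 817 with an array left out (341 without control 2, 170 without null 2, 439 without null 3, 6 and 0 without Tbx18VP16 1 and 2), and members 0 to 1. Tbx18VP16 replicate numbers did not pair with those of the other groups (correlations of same-numbered deviations from -0.254 to 0.059). With the number as a block all the same, 3644 and 3294 genes and 2 and 3 members were called against control and null, with Tbx4 at 3.56 and 2.22 and Tbx6 at -1.05 and -1.17.

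Changes that turned in sign were never called. In null against control these were Mga without pair 3 (-0.07), Tbx1 without null 1 (-0.05, range -0.05 to 0.86 with an array left out), and Tbx6 without null 1 (-0.06) or control 3 (-0.13, range -0.13 to 0.32). In Tbx18VP16 against control they were Mga with the percentile over all spots (0.10) and Tbx5 with normexp (-0.11). Against null they were Tbx5 with normexp (-0.39) or without null 2 (-0.27, range -0.27 to 1.13), and Tbx3 without null 2 (0 when rounded, range 0 to 0.10). The cause was not tested. The number of arrays limits precision, and Tbx4, Tbx5, Tbx15 and Tbx20 lie near background. A lone Tbx18VP16 array was assumed to vary like the other groups.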
